A study of Homo sapiens with 12 samples.

Results

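A set of 10 genes of the thioredoxin, peroxiredoxin, glutathione peroxidase, superoxide dismutase and catalase families were followed by name in HT29 cells exposed to a hot water extract of *Aconitum carmichaeli* Debeaux (ACD). The members were TXN, TXNRD1, SRXN1, PRDX1, GPX1, GPX2, GPX4, SOD1, SOD2 and CAT, taken by symbol. Of these 10, 9 were found among the 60675 gene identifiers of the count table and all 9 had enough reads to be tested. SOD2 could not be matched to an identifier with the gene names used here and was not analysed here. HT29 is an established human colorectal adenocarcinoma line. The study asked whether ACD acts mainly on the brain or on the intestine, and HT29 was its intestinal line. Each group held 3 RNA libraries made after 24 h: vehicle, which was PBS with 2% DMSO, and ACD at 20 (low), 100 (medium) or 500 (high) µg/mL. By the study's methods the extract was also taken up in PBS with 2% DMSO. It was then added to a larger volume of medium, so the 2% is that of the stock and not of the culture. Nothing in the labels says that the 3 replicates of a group were separate cultures, so the p-values measure the spread between libraries, which may be technical.

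These genes encode enzymes that remove peroxides and superoxide. Superoxide dismutases turn superoxide into hydrogen peroxide, and catalase, the glutathione peroxidases and the peroxiredoxins break the peroxide down. Peroxiredoxins are returned to their reduced form by thioredoxin, which is in turn reduced by thioredoxin reductase with NADPH, while sulfiredoxin rescues peroxiredoxins that have been overoxidised. In many cell types TXNRD1, SRXN1 and GPX2 are among the known targets of the transcription factor NRF2, which binds antioxidant response elements in DNA. They are given as examples, and the other members were not sorted into targets and non-targets. Intestinal epithelium is known for its high GPX2.

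Of the members 4 are selenoproteins, in which an in-frame TGA codon is read as selenocysteine. The codon is shown here, in capitals within its coding strand of the GRCh38 canonical transcript (GENCODE 44), because it separates TXNRD1, GPX1, GPX2 and GPX4 from the 5 other members, whose coding sequences hold none. In TXNRD1 it is codon 648 of 649 (chr12:104348413-104348415), next to the end of the protein. It is codon 49 of 203 in GPX1 (chr3:49358132-49358134), codon 40 of 190 in GPX2 (chr14:64942607-64942609) and codon 73 of 197 in GPX4 (chr19:1105403-1105405).
TXNRD1: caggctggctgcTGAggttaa
GPX1: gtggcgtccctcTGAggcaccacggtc
GPX2: gtggcttcgctcTGAggcacaaccacc
GPX4: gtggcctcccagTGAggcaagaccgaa

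The sequence upstream of the start is shown for TXNRD1, SRXN1 and GPX2, the 3 members whose levels rose with dose. RefSeq windows (GRCh38.p14) from 250 bases before to 50 bases after a start were at hand for 7 of the members, in 10 windows; PRDX1 and SOD1 had none. The antioxidant response element core TGACNNNGC was searched on both strands and is in capitals below. It was present in both windows of TXNRD1 and in that of GPX2, in none of the 7 other windows, SRXN1 included, and in 13.3% of the 35116 RefSeq windows. A match is a description of the letters and does not show a bound site. GCGTG, the core of the dioxin response element, was present in 36.5% of all windows and in 7 of these 10, but not in those of GPX2 or CAT or in the first of TXNRD1. The stretches are TXNRD1 before its first start (chr12:104215529-104215779, plus strand), 29 bases around the match in the second TXNRD1 window (chr12:104286920-104286948, plus strand), GPX2 (chr14:64942746-64942995, minus strand) and SRXN1 (chr20:653201-653450, minus strand).
TXNRD1 first start: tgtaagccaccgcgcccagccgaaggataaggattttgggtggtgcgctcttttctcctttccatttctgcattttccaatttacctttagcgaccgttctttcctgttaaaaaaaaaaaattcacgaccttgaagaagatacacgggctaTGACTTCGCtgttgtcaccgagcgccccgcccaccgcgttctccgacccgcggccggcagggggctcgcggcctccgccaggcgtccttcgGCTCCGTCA
TXNRD1 second start: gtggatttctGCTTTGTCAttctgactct
GPX2: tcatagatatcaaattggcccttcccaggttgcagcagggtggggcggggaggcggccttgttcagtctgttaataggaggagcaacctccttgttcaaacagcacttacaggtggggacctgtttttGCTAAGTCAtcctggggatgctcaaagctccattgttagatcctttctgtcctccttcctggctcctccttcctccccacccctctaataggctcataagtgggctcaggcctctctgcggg
SRXN1: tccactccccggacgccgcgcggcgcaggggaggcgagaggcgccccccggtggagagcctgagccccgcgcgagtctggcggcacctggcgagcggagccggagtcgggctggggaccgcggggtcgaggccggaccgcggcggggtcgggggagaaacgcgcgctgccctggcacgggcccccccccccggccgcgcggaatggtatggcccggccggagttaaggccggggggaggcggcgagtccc

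The libraries held 15941255 to 33866644 expected counts, and each member had on average between 2009 (SRXN1) and 18732 (GPX2) of them. Of 10 colon epithelial markers, all were tested, with a summed level of 10952 to 13136 CPM (counts scaled to 1e6 per library) in every group. Most of this sum was KRT8 (5632 to 7315 CPM) and KRT18 (3077 to 4624 CPM). CDX1 (0.922 to 1.54 CPM), CDX2 (4.61 to 6.75 CPM) and CEACAM5 (4.96 to 11.6 CPM) were low. Of 8 mesenchymal and astroglial markers 1 was tested (summed level 0.424 to 1.88 CPM, with 3 at 0 in all libraries), and of 8 leukocyte and endothelial markers 2 were tested (3.96 to 6.98 CPM). Mitochondrial transcripts took 14.0% to 16.6% of the counts at the high dose and 7.41% to 11.05% in the other groups. Refitting without the mitochondrial chromosome left 2 members called at the high dose, 2 at the medium dose and 3 for the trend, and 875 of all genes at the high dose where 887 were called with it. High-dose replicate 2 stood apart. Its genes over 5 CPM deviated from the mean of the other 2 libraries of its group with an SD of 0.502 on the log2 scale. This SD was 0.102 to 0.293 in the other 11 libraries, and the other high-dose libraries have replicate 2 in their reference. High-dose results are given with all libraries, and beside them it is said what changed when this library was left out.

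Across the 9 members, TXNRD1 and SRXN1 rose against vehicle at the medium and at the high dose. With all libraries no member was called lower at any dose, but GPX1 passed downward at the high dose without high-dose replicate 2. At the high dose 2 of 9 members passed an adjusted p under 0.05 in edgeR's quasi-likelihood test, while 5.77% of all 15374 genes tested did. At the medium dose 2 of 9 passed, against a background of 1.01%. At the low dose 0 of 9 passed, against 0.124% of all genes. The members were chosen with earlier results of these data known, so their counts beside these shares are a description only. At that dose 1 member, TXNRD1, had an unadjusted p under 0.05, as 7.95% of all genes did, and DESeq2 with all libraries called 1 member, again TXNRD1, and 0.617% of all genes. With the added minimum of a 1.5-fold change, 1 member (TXNRD1) remained at the high dose and 1 (TXNRD1) at the medium dose, where 2.93% and 0.676% of all genes did. DESeq2 with all libraries called 3 members at the high dose, where it called 7.62% of all genes. In such bulk RNA a change in the share of cells that express a gene and a change in RNA per cell cannot be told apart. The median log2 fold change of the members at the high dose was 0.24, beside 0.01 over all genes tested. This median depended on high-dose replicate 2 and fell below 0 without it. TXNRD1, SRXN1 and GPX2 were then at 0.21 to 0.73, and TXN, PRDX1, GPX1, GPX4, SOD1 and CAT at -0.41 to -0.05.

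**Figure D1:**
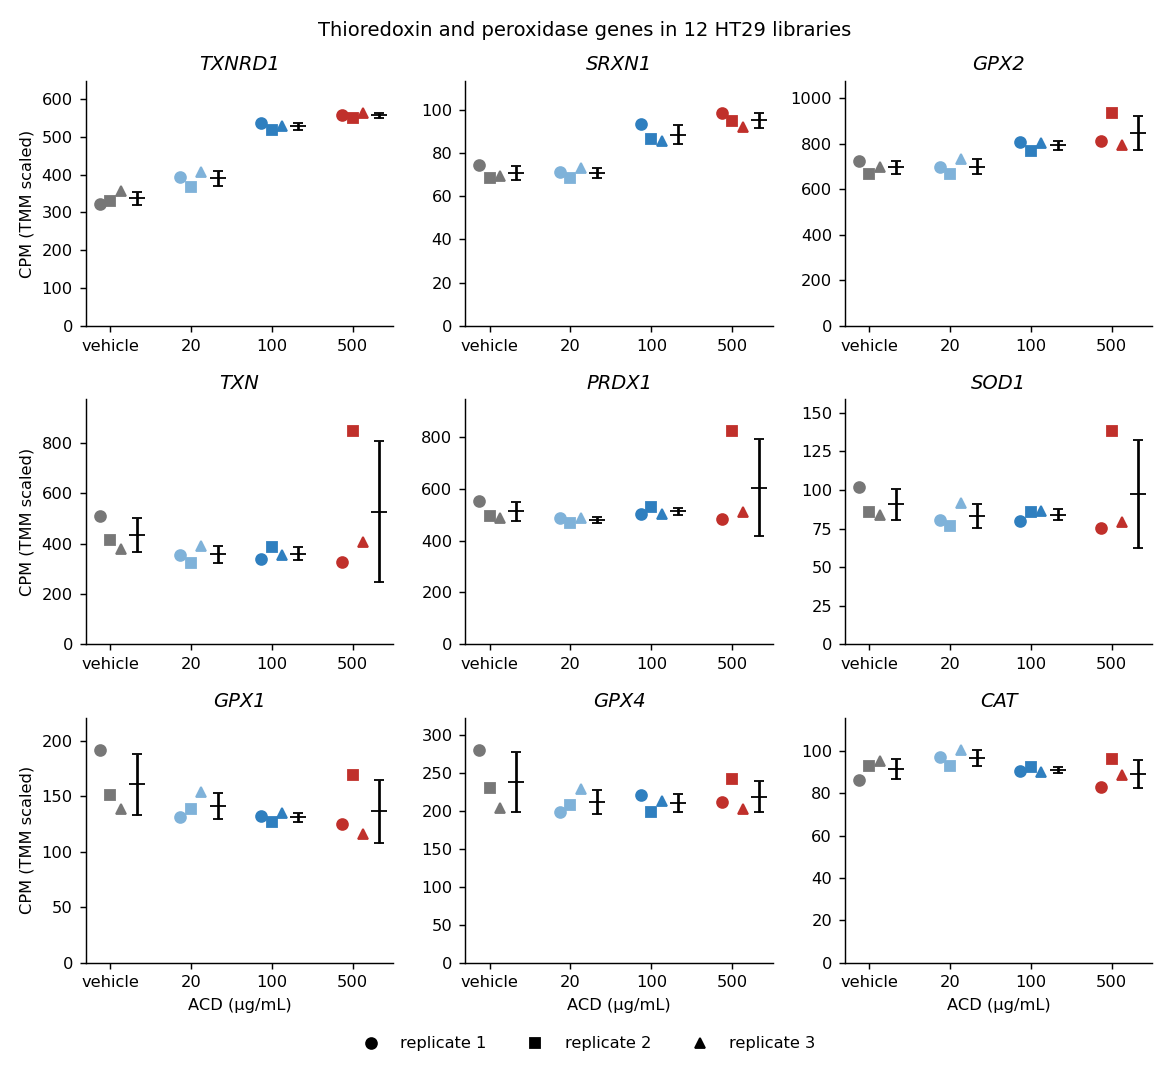
Level of each member (vertical axis, CPM scaled by TMM, starting at 0) in the 3 vehicle libraries and the 3 libraries at each ACD dose (horizontal axis, µg/mL); marker shape is the replicate, and the black bar with its error is the group mean ± SD. TXNRD1 and SRXN1 lie above vehicle in every library at 100 and 500 µg/mL, while TXN, PRDX1 and SOD1 are highest in replicate 2 at 500 µg/mL.

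TXNRD1, the cytosolic thioredoxin reductase, changed the most. Its level was 323, 332 and 357 CPM in the vehicle libraries. It was 395, 368 and 407 CPM at the low dose, 537, 519 and 529 CPM at the medium dose and 556, 551 and 563 CPM at the high dose. The 4 groups did not overlap and followed the order of the doses. Against vehicle the log2 fold change was 0.72 at the high dose (SE 0.07, 1.65-fold, adjusted p = 7.72e-05 by edgeR) and 0.65 at the medium dose (SE 0.07, 1.57-fold, adjusted p = 0.000644 by edgeR). At the low dose it was 0.21 (SE 0.07), with all 3 libraries above vehicle, but the adjusted p of 0.429 by edgeR missed the threshold. Both calls against vehicle held in all 22 alternative analyses.

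The step from the low to the medium dose, which does not use the vehicle libraries, was 0.44 for TXNRD1 on the log2 scale (SE 0.07, adjusted p = 0.0355 by edgeR). TXNRD1 was the 1 member of 9 that passed in this step, against 0.143% of all genes. The call was lost when any 1 of the 3 low or 3 medium libraries, vehicle replicate 2 or 3, or high replicate 3 was left out, with adjusted p up to 0.238. The step from the medium to the high dose was 0.08 (SE 0.07, 95% interval -0.08 to 0.23, adjusted p = 0.690 by edgeR), and 0 of 9 members passed it (0.891% of all genes). Among the members 0 had an unadjusted p under 0.05, where 9.85% of all genes did, and DESeq2 with all libraries called 0.

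SRXN1, the sulfiredoxin that repairs overoxidised peroxiredoxins, rose by less, at the medium and the high dose. Vehicle libraries held 74.5, 68.3 and 69.3 CPM and low-dose libraries 70.9, 68.4 and 73.0 CPM, and these ranges overlapped. At the medium dose the values were 93.4, 86.2 and 85.6 CPM, and at the high dose 98.4, 94.9 and 91.7 CPM, all above every vehicle and low-dose library. The log2 fold change was 0.43 at the high dose (SE 0.07, 1.34-fold, adjusted p = 0.00228 by edgeR) and 0.32 at the medium dose (SE 0.07, 1.25-fold, adjusted p = 0.0406 by edgeR). At the low dose it was 0.00 (95% interval -0.14 to 0.15). The high-dose call was lost in 1 of 22 alternatives, when only the 2 groups entered the fit (adjusted p = 0.0838). The medium-dose call was the least stable of the 4 calls against vehicle: it held in 9 of 22 alternatives, and without any 1 library other than high replicate 2 it was lost, with adjusted p from 0.0513 to 0.216 and log2 fold changes of 0.28 to 0.36.

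**Figure D2:**
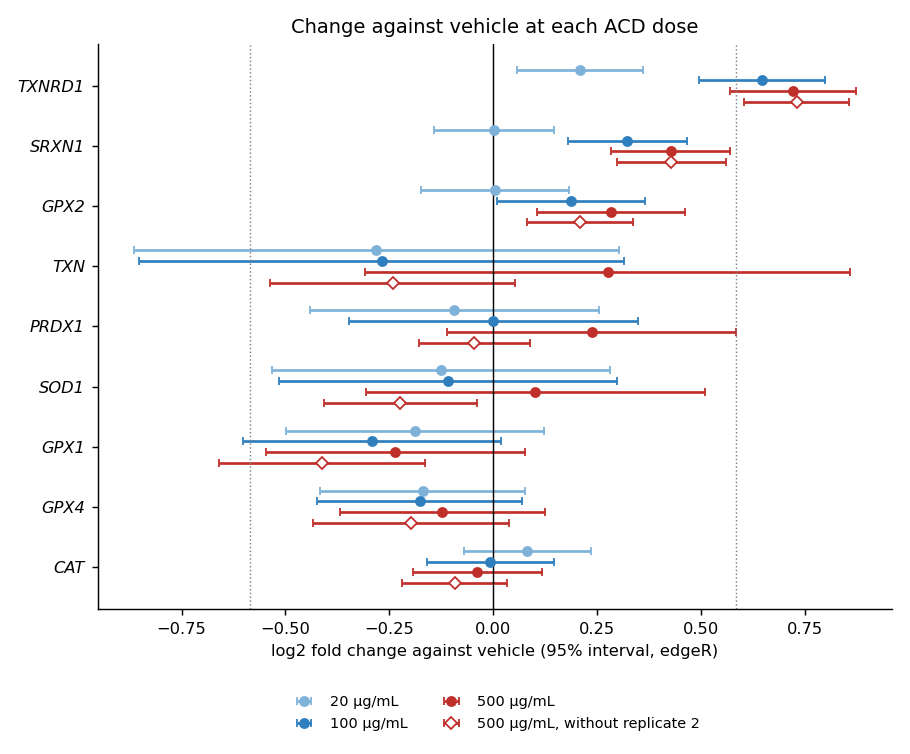
Log2 fold change of each member against vehicle (horizontal axis) with its 95% interval from edgeR at 20, 100 and 500 µg/mL ACD, and at 500 µg/mL with replicate 2 left out (open diamonds); dotted lines mark a 1.5-fold change either way. TXNRD1, SRXN1 and GPX2 have intervals above 0 at the upper 2 doses and TXNRD1 also at 20 µg/mL. Without replicate 2 the intervals of TXN, SOD1 and PRDX1 at 500 µg/mL narrow, and those of GPX1 and SOD1 lie below 0.

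GPX2, the glutathione peroxidase of the gut epithelium, was the most abundant member per length. Its level was 726, 667 and 696 CPM in vehicle and 699, 666 and 732 CPM at the low dose. It was 807, 769.5 and 803 CPM at the medium dose and 814, 936 and 796 CPM at the high dose. Every library at the 2 upper doses lay above every vehicle and low-dose library. Against vehicle the log2 fold change was 0.19 at the medium dose (SE 0.08, adjusted p = 0.400 by edgeR) and 0.28 at the high dose (SE 0.08, 1.22-fold, adjusted p = 0.0660 by edgeR), and neither passed. Without high-dose replicate 2 both passed, with 0.19 (adjusted p = 0.0449) and 0.21 (adjusted p = 0.0223), as did 6.87% and 18.7% of all genes. The medium-dose value stayed at 0.19, as that library is in neither of its groups.

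A linear trend over the 4 dose ranks passed for 3 of 9 members, where 5.74% of all genes passed. The slope per dose step on the log2 scale was 0.26 for TXNRD1 (SE 0.03, adjusted p = 8.93e-05 by edgeR), 0.16 for SRXN1 (SE 0.02, adjusted p = 0.00167) and 0.10 for GPX2 (SE 0.03, adjusted p = 0.0306). The TXNRD1 and SRXN1 trends held in all 20 alternatives. That of GPX2 held in 15, and was lost without vehicle replicate 2 (adjusted p = 0.0900), vehicle replicate 3, high replicate 1 or high replicate 3. Without high-dose replicate 2 the TXNRD1, SRXN1 and GPX2 trends passed again. GPX1 then also passed, downward (slope -0.14, SE 0.03, adjusted p = 0.00886 by edgeR), where 17.5% of all genes passed.

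The substrate side of the cycle gave no call. TXN, the cytosolic thioredoxin, was at 510.2, 414 and 381 CPM in vehicle, 356, 325 and 392 CPM at the low dose and 339, 387 and 357 CPM at the medium dose. At the high dose it was at 327 and 408 CPM in replicates 1 and 3 and at 847 CPM in replicate 2, the highest of all libraries. The log2 fold change at the high dose was 0.28 (SE 0.27, 95% interval -0.31 to 0.86, adjusted p = 0.635 by edgeR), and without replicate 2 it was -0.24 (adjusted p = 0.235). With either set of libraries the test gave no direction.

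PRDX1, the abundant cytosolic peroxiredoxin, was at 554, 497 and 486 CPM in vehicle and at 467 to 529.6 CPM in the 6 low- and medium-dose libraries. The high-dose libraries held 482, 821 and 509.9 CPM, again with replicate 2 apart and the other 2 within the vehicle and dose range. Its log2 fold change of 0.24 (SE 0.16, adjusted p = 0.457 by edgeR) became -0.05 without that library (adjusted p = 0.657).

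SOD1, the copper-zinc superoxide dismutase of the cytosol, followed the same libraries. Vehicle held 102, 85.7 and 83.9 CPM, the low dose 80.7, 76.5 and 91.9 CPM, the medium dose 80.0, 85.5 and 86.4 CPM and the high dose 75.1, 138 and 79.5 CPM. The log2 fold change at the high dose was 0.10 (SE 0.19, adjusted p = 0.829 by edgeR) and -0.22 without replicate 2 (adjusted p = 0.0834). CAT, the catalase of peroxisomes, was at 82.8 to 100.5 CPM over the 12 libraries. Its log2 fold change at the high dose was -0.04 (SE 0.07, adjusted p = 0.834 by edgeR), with a 95% interval of -0.19 to 0.12, and -0.09 without replicate 2 (adjusted p = 0.297).

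GPX1 and GPX4, the 2 other glutathione peroxidases followed, gave no call with all libraries. GPX1, the widespread cytosolic form, was at 192, 152 and 139 CPM in vehicle, 131, 139 and 154 CPM at the low dose, 133, 127 and 135 CPM at the medium dose and 125, 169 and 116 CPM at the high dose. The medium group lay below vehicle without overlap, and the log2 fold change there was -0.29 (SE 0.14, adjusted p = 0.465 by edgeR). At the high dose it was -0.24 (SE 0.14, adjusted p = 0.401). Without high-dose replicate 2, GPX1 passed at -0.41 (SE 0.11, adjusted p = 0.0264), and it also passed when vehicle replicate 1, its highest library, was left out as well (log2 fold change -0.27, adjusted p = 0.00597). GPX4, which reduces lipid peroxides in membranes, was at 281, 230.3 and 204 CPM in vehicle and between 198 and 242 CPM in the 9 treated libraries, with a log2 fold change at the high dose of -0.12 (SE 0.11, adjusted p = 0.614 by edgeR), and of -0.20 without replicate 2 (adjusted p = 0.229).

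Without high-dose replicate 2, then, 4 of 9 members passed at the high dose (TXNRD1, SRXN1, GPX2 up, GPX1 down), against a background of 18.7% of all genes. TXNRD1 was at 0.73 (adjusted p = 1.84e-07) and SRXN1 at 0.43 (adjusted p = 0.000133) on the log2 scale, close to their values with all libraries. With all libraries, 3 members (TXNRD1, SRXN1, GPX2) lay above vehicle without overlap and 0 below it at the high dose, where 10.5% and 11.5% of all genes did. At the medium dose 3 lay above (TXNRD1, SRXN1, GPX2) and 1 below (GPX1), against 14.6% and 14.1%, and at the low dose 1 (TXNRD1) lay above, against 11.4%.

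The deviation of single libraries moved with transcript length. In high-dose replicate 2, TXN was 2.32-fold, SOD1 1.78-fold, PRDX1 1.66-fold and GPX1 1.40-fold the mean of the 2 other high-dose libraries, while GPX2 and GPX4 were 1.16-fold and CAT 1.12-fold. TXNRD1 was at 0.984-fold and SRXN1 at 0.999-fold. The 6 members whose canonical transcript is under 1000 bases (737 for TXN to 945 for PRDX1) all lay above 1, and the 3 longer ones, CAT (2291), SRXN1 (2528) and TXNRD1 (3860), lay closest to 1. Over all genes above 5 CPM with a length, the median log2 ratio of that library was 0.57 for 720 genes under 1000 bases, 0.36 from 1000 to 2000, 0.06 from 2000 to 4000 and -0.26 over 4000.

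Vehicle replicate 1 had a smaller deviation of the same order, with medians of 0.30, 0.16, 0.02 and -0.13 in these classes. In it GPX1 was 1.32-fold, GPX4 1.296-fold, TXN 1.29-fold and SOD1 1.21-fold the other 2 vehicle libraries. When each library's trend with transcript length was taken out as an offset, GPX2 passed at the medium (log2 fold change 0.33, adjusted p = 0.0251) and the high dose (0.34, adjusted p = 0.00750). In that fit 1.65% of all genes passed at the medium and 8.16% at the high dose. What made the short transcripts differ between these libraries was not tested.

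**Figure D3:**
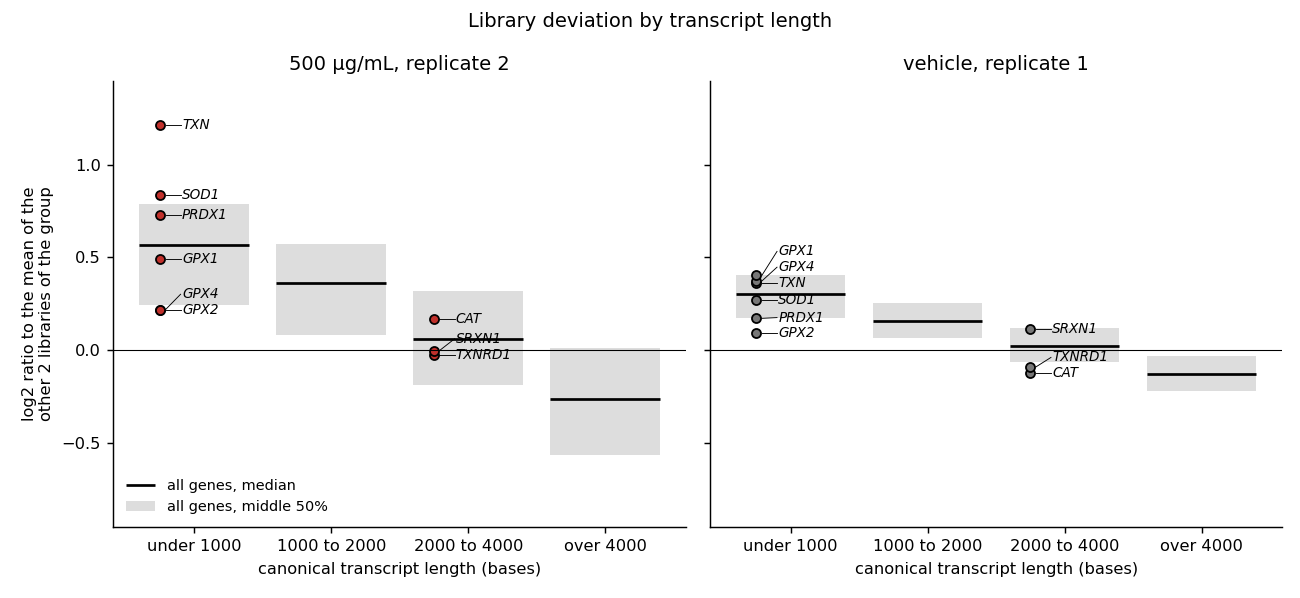
Log2 ratio of 2 libraries to the mean of the other 2 libraries of their group (vertical axis) by class of canonical transcript length in bases (horizontal axis); grey boxes hold the middle 50% of all genes over 5 CPM, black lines their medians, and points the 9 members. In both libraries the medians fall from short to long transcripts, and the members under 1000 bases lie above 0.

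Set against transcript length, the vehicle levels spanned from 755 ± 31.9 CPM per kb for GPX2 to 28.0 ± 1.31 CPM per kb for SRXN1 (SD, n = 3). TXN (590 ± 91.4) and PRDX1 (542 ± 38.5) came next, and their ranges overlapped. GPX4 (280.2 ± 45.9), GPX1 (179 ± 30.9), SOD1 (101 ± 11.3), TXNRD1 (87.4 ± 4.53) and CAT (39.9 ± 2.02) followed in CPM per kb, each range clear of the next. At the high dose TXNRD1 stood at 144 ± 1.58 CPM per kb and SOD1 at 109 ± 39.2 CPM per kb, with overlapping ranges. SRXN1 reached 37.6 ± 1.32 CPM per kb beside 38.9 ± 2.89 for CAT, also overlapping.

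The highest Pearson correlations of log2 CPM between members over the 12 libraries were within 3 groups of genes. TXNRD1, SRXN1 and GPX2 were correlated at 0.93 (TXNRD1 and SRXN1), 0.91 (SRXN1 and GPX2) and 0.84 (TXNRD1 and GPX2). TXN, SOD1 and PRDX1 were correlated at 0.93 to 0.96, and GPX1 and GPX4 at 0.91. Values between these groups reached 0.74 (GPX1 and SOD1), 0.71 (PRDX1 and GPX2), 0.65 (GPX1 and TXN) and 0.64 (GPX4 and SOD1). The libraries share dose group and, for the short transcripts, the deviation with length given above, so these values are a description only. Among 13140 genes the 3 most like TXNRD1 were SLC22A3, an organic cation transporter (r = 0.987), CYP1A1, a cytochrome P450 (r = 0.984), and EDC3, an mRNA decapping factor (r = 0.980). Those most like SRXN1 were TRIM16L (r = 0.966), GCLC (r = 0.959) and ALDH3A1, an aldehyde dehydrogenase (r = 0.956).

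Among the regulators around the cycle, TXNIP, the protein that binds and inhibits thioredoxin, fell. It was at 55.4, 54.3 and 59.1 CPM in vehicle, 49.8, 49.7 and 56.8 CPM at the low dose, 36.0, 34.2 and 36.3 CPM at the medium dose and 16.6, 28.6 and 20.0 CPM at the high dose. The high-dose libraries lay below all others, with a log2 fold change of -1.39 (SE 0.15, adjusted p = 0.000171 by edgeR). At the medium dose it was -0.66 (SE 0.14, adjusted p = 0.0551). TXNIP was the 1 gene of 7 other thioredoxin genes that passed at the high dose. TXN2 and TXNRD2, the mitochondrial thioredoxin and its reductase, had log2 fold changes of 0.04 (adjusted p = 0.905) and -0.25 (adjusted p = 0.0855). When high-dose replicate 2 was left out, 3 of the 7 passed downward: TXNIP (-1.61), TXNRD2 (-0.23, adjusted p = 0.0368) and TXNDC17 (-0.54, adjusted p = 0.0149). Over all genes 18.7% passed in that fit, in either direction.

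Of 8 other peroxiredoxin-related genes, 1 rose and 2 fell at the high dose, and all 3 were sestrins, stress-induced proteins that act on peroxiredoxin and on mTORC1 signalling. SESN2 was at 11.5 to 13.4 CPM in vehicle and at 28.8, 21.4 and 29.1 CPM at the high dose (log2 fold change 1.11, SE 0.13, adjusted p = 0.000262 by edgeR), and its low- and medium-dose values of 11.9 to 14.5 CPM overlapped vehicle. SESN1 fell by 0.73 on the log2 scale (SE 0.11, adjusted p = 0.00193), from 33.1 to 34.7 CPM down to 18.6, 23.9 and 18.7 CPM. SESN3 fell by 1.01 (SE 0.24, adjusted p = 0.0283) at a level of 1.27 to 3.51 CPM over all vehicle and high-dose libraries. The peroxiredoxins PRDX2, PRDX3, PRDX4, PRDX5 and PRDX6 did not pass, with log2 fold changes of -0.02 to 0.33 and adjusted p of 0.387 to 0.985. The 3 sestrin calls held without high-dose replicate 2, and the 5 peroxiredoxins again did not pass (-0.23 to 0.03, adjusted p of 0.0743 to 0.736).

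**Figure D4:**
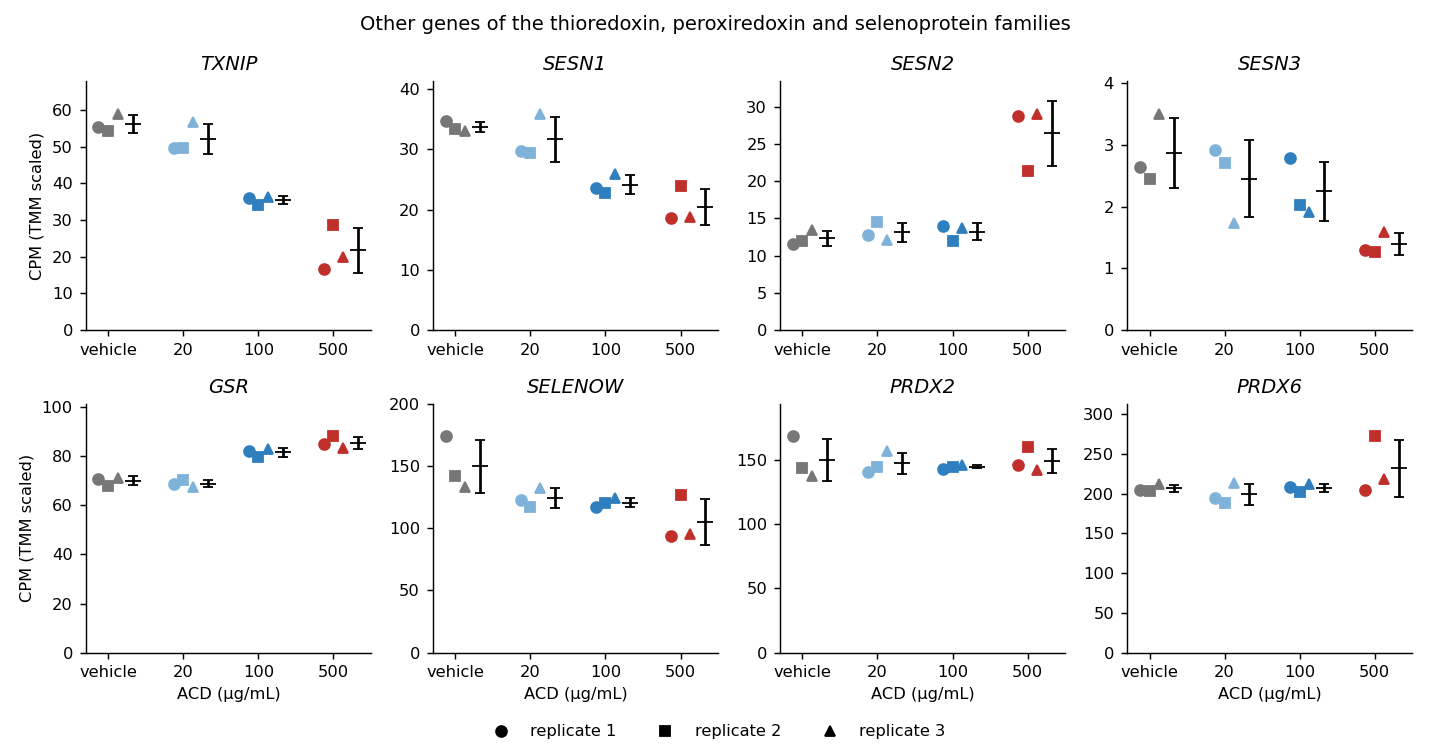
Level of 8 related genes (vertical axis, CPM scaled by TMM, starting at 0) in the 3 vehicle libraries and the 3 libraries at each ACD dose (horizontal axis, µg/mL), with group mean ± SD in black and the marker shape giving the replicate. TXNIP and SESN1 fall with dose, SESN2 is higher at 500 µg/mL, and PRDX2 and PRDX6 did not pass the test.

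On the glutathione side, GSR, the glutathione reductase, rose from 67.8 to 71.2 CPM in vehicle to 84.9, 88.2 and 83.3 CPM at the high dose (log2 fold change 0.29, SE 0.06, adjusted p = 0.0121 by edgeR). It was the 1 gene called among 8 tested glutaredoxin, glutathione reductase and methionine sulfoxide reductase genes. Of 6 tested further peroxidase and superoxide dismutase genes 0 passed in edgeR at the high dose, while 3 had an unadjusted p under 0.05. The share of all genes with such a p at this dose is not given here, so that count has no background. DESeq2 with all libraries called 1 of the 6, where it called 7.62% of all genes. The lowest adjusted p of the 6 was that of PXDN (0.0532), and PXDN and SOD3 passed the dose trend downward, at levels under 3 CPM. PXDN passed at the high dose without high-dose replicate 2 (-1.16, adjusted p = 0.0432). Of 10 genes of selenium uptake and of selenocysteine synthesis and insertion 0 passed in edgeR. Among them 4 had an unadjusted p under 0.05, again without a background share, and DESeq2 called 2, beside the same 7.62% of all genes. With that library left out 3 of the 10 passed: LRP8, a receptor for selenoprotein P, at 0.42 and SEPHS1 at 0.16, both up, and EEFSEC, the selenocysteine elongation factor, at -0.23. Among 10 tested further selenoproteins, SELENOW fell by 0.51 (SE 0.12, adjusted p = 0.0315), from 133 to 174 CPM in vehicle to 93.4, 127 and 95.5 CPM at the high dose. Of 11 peroxisome genes, PEX19, a factor for peroxisomal membrane protein import, rose by 0.29 (SE 0.07, adjusted p = 0.0357). The calls of GSR (0.27), SELENOW (-0.66) and PEX19 (0.22) held without that library, but more genes of these lists then passed. Of the 8 genes listed with GSR, 1 rose and 2 fell. Of the 10 further selenoproteins 1 rose and 4 fell, and of the 11 peroxisome genes 1 rose and 1 fell. Over all genes 18.7% passed in that fit, in either direction.

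For comparison, 7 other known NRF2 targets were listed, and all 7 rose at the high dose (median log2 fold change 0.77), where 2.82% of all genes rose. The members and all the lists, this one and the NF-κB list below included, were chosen with earlier results of these data known. Their counts are a description only. SLC7A11, the cystine transporter, was at 1.20 (SE 0.10), HMOX1, haem oxygenase, at 1.09 (SE 0.11), and GCLC and GCLM, the subunits of the enzyme that starts glutathione synthesis, at 0.77 (SE 0.06) and 0.75 (SE 0.09). At the medium dose 3 of these 7 rose, where 1.01% of all genes passed in either direction. Of 7 known NF-κB targets 5 rose at the high dose, led by the chemokines CXCL1 (4.04, SE 0.19) and CXCL8 (3.08, SE 0.27), with ICAM1 at 1.25 and BIRC3 at 1.09. In each of these lists 7 of 7 genes rose when high-dose replicate 2 was left out, with SLC7A11 at 1.31, HMOX1 at 0.99, CXCL1 at 3.84 and CXCL8 at 2.67. Over the 9 other lists together, with 86 genes listed but not all tested, 19 passed at the high dose, 15 up and 4 down. Of these 19, 7 came from the NRF2 list and 5 from the NF-κB list, and 5.77% of all genes tested passed. Without high-dose replicate 2, 34 passed, 20 up and 14 down, where 18.7% of all genes did.

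Reads of related sequences could add to some members. GPX1P1, a GPX1 pseudogene on chromosome X, was at 0.642 to 2.47 CPM, while GPX1 was at 116 to 192 CPM. Genes on the opposite strand overlap PRDX1 (MMACHC, 424 expected counts on average) and GPX2 (CHURC1, 728), and, although the library kit was directional, the strand setting of the counting is not given in the sources used here. Inside TXNRD1 lies the pseudogene RPL18AP3 (201 expected counts) beside 11252 for TXNRD1.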

How the data were processed

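RNA-seq of HT29 cells was analysed in 12 libraries, 3 per group; the SW1783 and wortmannin libraries of the study were not used here. Per the labels, the authors used FastQC 0.11.9, Trim Galore 0.6.5, STAR 2.7.3a and RSEM 1.3.3 on GRCh38. The deposited values are RSEM expected counts per gene, not normalized, and they were rounded to whole numbers here. The treatment note names a Poria cocos extract; groups follow the titles, which name ACD. Genes passed filterByExpr, were scaled by TMM and were fitted over the 12 libraries together with edgeR 4.0.16 (quasi-likelihood, robust, R 4.3.3). P-values were adjusted by Benjamini-Hochberg over all 15374 genes tested. A gene passed at an adjusted p under 0.05. The 95% intervals came from the same fit. DESeq2 1.42.0 was an alternative. CPM per kb used the GENCODE canonical transcript. The fit was tested on simulated data. Depth was 15941255 to 33866644 expected counts.

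The members and lists were chosen with earlier results of these data known. Named genes were all members, from each other list up to 4 genes called at any dose, taken by their p at 500 µg/mL, and the 3 genes most like each called member. TXN2, TXNRD2, TXNDC17, PRDX2 to PRDX6, PXDN, SOD3, LRP8, SEPHS1, EEFSEC, and the genes of the other pseudogene and overlap checks were named outside this rule, after their values were seen.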

Additional observations from a re-analysis of the deposited data

How the results depend on the processing

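The alternatives chosen after seeing the data were the offset for transcript length, and leaving out high replicate 2 and vehicle replicate 1 together. At the high dose 2 members passed. This became 1 with the 2 groups alone in edgeR and 4 with both libraries left out, and leaving out one library each gave 2 to 4, with 4 without high replicate 2. At the medium dose 2 became 1 with no filter on low counts, and leaving out one library each gave 1 to 3. At the low dose 0 became 1 under DESeq2 with all libraries (TXNRD1, adjusted p = 0.0394). For the step from low to medium dose, 1 became 2 under DESeq2 with all libraries, 2 with the 2 groups alone, 2 with the length offset, and 3 with both libraries left out; leaving out one library each gave 0 to 2. The other listed genes called at the high dose, 19, became 11 with the 2 groups alone and 32 with both libraries left out, and 13 to 34 with one library left out. The replicate block gave 1 member at the medium dose and 0 for the step from low to medium dose; the calls lost were SRXN1 at the medium dose (adjusted p = 0.0787), TXNRD1 in that step (0.139) and the GPX2 trend (0.0661). The labels give each group replicate numbers 1 to 3, but same-numbered libraries did not deviate together (correlation of deviations -0.50 to 0.37, and 4 of 12 libraries correlated best with their own number). No other count of members changed by over 1.5 times under the block. With both libraries left out, the high-dose log2 fold change was -0.11 for TXN and -0.13 for SOD1, and that of GPX1 between high and medium dose was -0.12, and -0.048 with the length offset. None of these passed. Leaving out one library turned the sign of uncalled values near 0: the high-dose value ranged from -0.24 to 0.53 for TXN, -0.045 to 0.38 for PRDX1, -0.22 to 0.26 for SOD1, -0.21 to 0.012 for GPX4 and -0.093 to 0.013 for CAT. Low-dose values ranged from -0.023 to 0.041 for SRXN1 and -0.029 to 0.038 for GPX2, and GPX1 between high and medium dose from -0.12 to 0.16. All genes called at the high dose, 887, became 181 with the 2 groups alone, 463 under DESeq2 with vehicle and 1 dose alone, 433 (without vehicle replicate 2) to 2934 (without high replicate 2) with one library left out and 2753 with both left out. Over all alternatives, the genes called ranged from 59 to 1077 at the medium dose (155 with all libraries), 10 to 318 at the low dose (19), 10 to 634 between high and medium dose (137), 8 to 231 between medium and low dose (22) and 452 to 2744 for the trend (882). The cause of these changes was not tested. With 3 libraries per group the SE of a member's log2 fold change at the high dose ranged from 0.07 to 0.27.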
